A study of Bos taurus with 17 samples.

Results

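The leukocyte and macrophage genes described here are PTPRC, LAPTM5, LCP1, CD14, CSF1R, CD68, TYROBP, AIF1, C1QA and C1QB, 10 genes chosen by name and followed in every array as a measure of leukocyte RNA. Each gene was represented by 1 probe, so they account for 10 of 21475 probes on the Agilent bovine array, and all 10 were among the 13865 probes that passed the filter on low signal. To pass, a probe had to be present (well above background, uniform and not saturated) in 80% or more of each stage's arrays.

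Bovine cumulus cells, the somatic cells that surround the oocyte, were measured at 3 stages on 17 arrays. NC1 cells came from the compact complexes of 6 individual prepubertal calves aged 3 to 6 months, aspirated post mortem from follicles of 3 to 6 mm in a commercial slaughterhouse. C1 cells came from compact complexes of 6 adult cows, collected in the same way. C2 cells came from the expanded complexes of 5 cycling, non-lactating Holstein cows aged 3 to 5 years, which carried progestagen implants and received 400 µg of an FSH and LH preparation each. These complexes were taken from the living animal by ultrasound-guided puncture (ovum pick-up) of follicles above 8 mm, 60 h after a prostaglandin injection. NC1 and C1 thus differed in the age of the animal. C2 differed from both in hormone treatment, follicle size, collection and cumulus expansion at once, and from NC1 in the age of the animal as well. These differences of C2 cannot be told apart. The sample labels name ovarian follicles as the source, and the methods describe cumulus cells that were separated mechanically from the oocyte.

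Leukocytes are blood-derived immune cells, and macrophages are the leukocytes that reside in tissues, where they engulf dying cells and debris. Both are present in the theca and stroma around the follicle, and leukocytes gather there around ovulation, while the avascular granulosa and cumulus layers lie inside the basement membrane. The receptors, adaptors and complement subunits considered here are made mainly by such cells, although single genes among them can also be transcribed elsewhere. In RNA from a bulk sample, fewer cells of a type and less RNA per cell cannot be told apart.

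Median signals of the arrays ranged from 64.2 to 208 intensity units, between 66.2% and 82.8% of probes were well above background, and no spot was saturated. The 11 granulosa and cumulus marker genes were above background in every array, and the cumulus expansion genes TNFAIP6, PTX3 and PTGS2 were higher in C2 than in C1 by 6.63 (SE 0.73), 4.98 (SE 0.79) and 4.75 (SE 0.47) on the log2 scale. The methods give individual calves and a number of cows for each stage but no map of the cows to arrays, so the p-values below measure the spread between these arrays. Over all filtered probes the SD of the difference between 2 C2 arrays was 0.44 for replicates 1 and 5 and 0.51 for replicates 3 and 4, and 1.05 to 1.27 for the other C2 pairs. The closest pairs within NC1 and C1 were at 0.43 and 0.45. Whether the close C2 arrays share an animal was not tested, and results are also given with each close pair averaged, an alternative chosen after seeing the data.

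Each probe has 60 bases. For the 5 genes that passed a test between stages, and for CSF1R, the gene with the largest SD among C2 arrays, a window of 30 bases is printed from 5′ to 3′, with the polyadenylation signal AATAAA or its variant ATTAAA in capitals where the probe holds one.
LCP1: aagatctctccaAATAAAatgttccccata
LAPTM5: tgatggggaagaagttttAATAAAgcagca
TYROBP: ctccccactactgcccccaAATAAAcattg
CSF1R: gtccctgtcagcATTAAActaaccccatta
PTPRC: atgatttcctattttacttccagaaataga
CD14: tgccctggctccgggagaccctcgccagga
One of these signals was found on the printed strand of the probes of 8 of the 10 genes, all but PTPRC and CD14. Among 13852 filtered probes with a sequence of the same length, 19.5% held one. A match is only a string of letters in the probe, and the position of the probes in the genome was not determined here.

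The mean level of the 10 genes was lowest in C1, intermediate in NC1 and highest in C2 over all arrays, but the C2 arrays were far apart and the order of C2 and NC1 rested on 2 of them. The mean over the 10 probes of log2 signal relative to the array median was 0.67 ± 0.54 (SD, n = 6) in NC1, -0.36 ± 0.52 (SD, n = 6) in C1 and 1.18 ± 1.45 (SD, n = 5) in C2. In C2 it was 2.12, -1.12, 1.04, 1.15 and 2.68 in replicates 1 to 5. C2 minus NC1 was 0.51, between 0.13 and 1.08 when any 1 array was left out, and -0.30 without C2 replicates 1 and 5. Replicate 2 lay below every C1 array, and the other C2 arrays lay above every C1 array. Replicate 2 was the lowest C2 array for each of the 10 genes, and replicates 1 and 5 were the 2 highest for 8 of them.

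**Figure D1:**
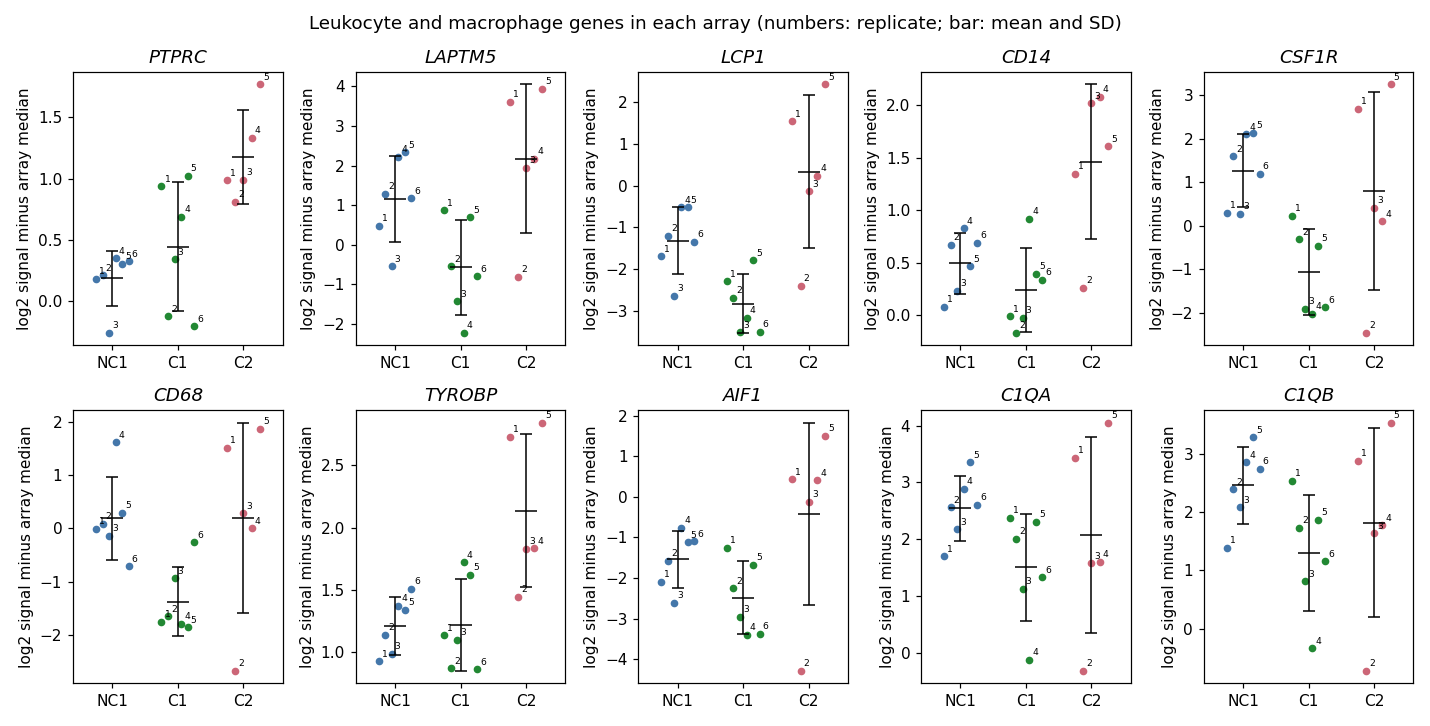
Level of each gene in each array, as log2 signal minus the array median (y axis, a separate scale for each gene), for NC1 (6 arrays), C1 (6 arrays) and C2 (5 arrays). Points are arrays with their replicate numbers and bars give the mean and SD; C2 replicate 2 is the lowest C2 point in all 10 panels.

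LCP1 encodes L-plastin, an actin-bundling protein of blood cells, and had the largest difference between C2 and C1 of the 10 genes. Its level was -2.64, -1.27 and -0.52 (lowest, median, highest) in NC1 and -3.51, -2.93 and -1.78 in C1. In C2 it was 1.53, -2.40, -0.14, 0.24 and 2.42 in replicates 1 to 5. Thus 4 of 5 C2 arrays lay above every C1 array and above every NC1 array, and replicate 2 lay within both. C2 was higher than C1 by 3.16 (SE 0.63) on the log2 scale, a fold of 8.91 (limma, adjusted p = 0.000604). Against NC1 the difference was 1.65 (SE 0.63, adjusted p = 0.0441), above the threshold of 0.01 used throughout. The probe was not well above background in NC1 replicate 3.

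LAPTM5 encodes a lysosomal membrane protein of haematopoietic cells. Its level was -0.54, 1.23 and 2.33 (lowest, median, highest) in NC1 and -2.22, -0.67 and 0.87 in C1, and it was 3.61, -0.81, 1.95, 2.17 and 3.93 in C2 replicates 1 to 5. The C2 arrays other than replicate 2 were above every C1 array, whereas only replicates 1 and 5 were above every NC1 array. C2 was higher than C1 by 2.74 (SE 0.75, adjusted p = 0.00683). Against NC1 the difference was 1.02 (SE 0.75, adjusted p = 0.30). The first call was lost when any of 8 arrays was left out (C1 replicates 2, 3, 4 or 6, or C2 replicates 1, 3, 4 or 5), with adjusted p between 0.0121 and 0.0217. The adjusted p was 0.0523 with the close C2 pairs averaged and 0.0109 by 75th percentile scaling.

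CD14 is the co-receptor through which myeloid cells sense bacterial lipopolysaccharide. Its level was 0.08, 0.57 and 0.83 (lowest, median, highest) in NC1 and -0.16, 0.16 and 0.92 in C1, and it was 1.34, 0.26, 2.02, 2.08 and 1.61 in C2 replicates 1 to 5. Here replicates 3 and 4, which were scanned on another day than the other C2 arrays, and not 1 and 5, were the highest. C2 was higher than C1 by 1.22 (SE 0.29, adjusted p = 0.00228), and this call held when any single array was left out but not with the close C2 pairs averaged (adjusted p = 0.0239). Against NC1 the difference of 0.97 (SE 0.29) had an adjusted p of 0.0114, and an adjusted p of 0.000279 without C2 replicate 2.

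TYROBP encodes DAP12, the signalling adaptor of several receptors of myeloid and natural killer cells. Its level was 0.93, 1.24 and 1.51 (lowest, median, highest) in NC1 and 0.87, 1.12 and 1.72 in C1, and it was 2.73, 1.45, 1.83, 1.83 and 2.84 in C2 replicates 1 to 5. The ranges of both groups of compact complexes overlapped, and that of C1 was wider at both ends. C2 was higher than C1 by 0.92 (SE 0.25, adjusted p = 0.00701) and higher than NC1 by 0.92 (SE 0.25, adjusted p = 0.00671). These calls lay close to the threshold. The one against C1 was lost without C1 replicate 1, 2, 3 or 6 or C2 replicate 1 or 5 (adjusted p from 0.0147 to 0.0237), and the one against NC1 without NC1 replicate 1, 2, 3, 4 or 5 or C2 replicate 1 or 5 (0.010 to 0.0230). Both were also lost with slide as a block (0.0237 and 0.0229), the replicate number as a block (0.0108 and 0.0106), 75th percentile (0.0264 and 0.0296) and quantile scaling (0.0104 for both), no filter (0.0109 and 0.0107) and averaged C2 pairs (0.0353 and 0.0338), and the first also with normexp background correction (0.0182).

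PTPRC encodes CD45, the tyrosine phosphatase on the surface of all leukocytes, and is the defining marker of the group. Its level was -0.26, 0.26 and 0.35 (lowest, median, highest) in NC1 and -0.21, 0.52 and 1.02 in C1, and it was 0.99, 0.81, 0.99, 1.33 and 1.77 in C2 replicates 1 to 5. All 5 C2 arrays lay above all 6 NC1 arrays, and PTPRC was the only one of the 10 genes with this separation. C2 was higher than NC1 by 0.99 (SE 0.24, adjusted p = 0.00314), and the adjusted p was 0.0109 without C2 replicate 5, 0.0152 with the close C2 pairs averaged and 0.0248 by 75th percentile scaling. Against C1 the difference was 0.73 (SE 0.24, adjusted p = 0.0212). PTPRC spread little within C2 (SD 0.38), less than 67.9% of the filtered probes.

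CSF1R, the receptor for the growth factor on which macrophages depend, had the largest SD in C2 (2.28) and was the only one of the 10 genes in which all calves lay apart from all adult cows with compact complexes. Its level was 0.28, 1.39 and 2.14 (lowest, median, highest) in NC1 and -2.02, -1.17 and 0.23 in C1, and every C1 array lay below every NC1 array. In C2 it was 2.69, -2.46, 0.41, 0.10 and 3.25 in replicates 1 to 5, a range of 52.4-fold that enclosed all NC1 and C1 values. C1 minus NC1 was -2.33 (SE 0.74), with an unadjusted p of 0.00559 and an adjusted p of 0.211 (limma). C2 minus C1 was 1.86 (SE 0.78, adjusted p = 0.0635), 2.67 with an adjusted p of 0.00245 without C2 replicate 2, and 0.41 with an adjusted p of 0.63 without C2 replicates 1 and 5.

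CD68, a lysosomal glycoprotein of macrophages, and AIF1, a calcium-binding actin regulator of macrophages, were, like CSF1R, highest in C2 replicates 5 and 1 and lowest in replicate 2. CD68 was at -0.72, 0.04 and 1.61 (lowest, median, highest) in NC1 and at -1.86, -1.70 and -0.26 in C1, and it was 1.51, -2.68, 0.28, 0.00 and 1.86 in C2 replicates 1 to 5. AIF1 was at -2.61, -1.35 and -0.76 in NC1 and at -3.39, -2.60 and -1.25 in C1, and it was 0.43, -4.29, -0.11, 0.41 and 1.5 in C2. For both genes 4 C2 arrays lay above every C1 array and replicate 2 lay below them all. In that array the AIF1 probe was not well above background. C2 minus C1 was 1.57 (SE 0.61, adjusted p = 0.0468) for CD68 and 2.07 (SE 0.74, adjusted p = 0.0322) for AIF1. Without C2 replicate 2 the differences were 2.29 and 3.04, with adjusted p of 0.00047 and 3.7e-05. Without C2 replicates 1 and 5 they were 0.58 and 1.15, with adjusted p of 0.432 and 0.239.

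C1QA and C1QB encode 2 of the chains of C1q, the recognition subunit of complement that macrophages make. C1QA was at 1.70, 2.58 and 3.35 (lowest, median, highest) in NC1 and at -0.12, 1.67 and 2.38 in C1, and it was 3.44, -0.31, 1.58, 1.60 and 4.05 in C2 replicates 1 to 5. C1QB was at 1.39, 2.57 and 3.29 in NC1 and at -0.34, 1.44 and 2.54 in C1, and it was 2.88, -0.73, 1.64, 1.78 and 3.54 in C2. For both genes C2 replicates 3 and 4 lay inside the C1 range. C2 minus C1 was 0.57 (95% interval from -0.72 to 1.85) for C1QA and 0.53 (95% interval from -0.76 to 1.81) for C1QB, with adjusted p of 0.488 and 0.519.

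In the comparison of C2 with C1, which asks how cumulus cells change from the immature to the mature competent oocyte, all 10 genes had a higher mean in C2 and 4 passed the threshold (LCP1, LAPTM5, CD14 and TYROBP). Of all filtered probes 28.1% passed in this comparison, and 15.3% of all filtered probes passed with a higher level in C2. The median difference was 1.40 over the 10 genes and 0.02 over all filtered probes. The fit took 1 SD per probe over the 3 stages, although LCP1, for example, had an SD of 1.84 in C2 and 0.70 in C1. By a 2-sided exact permutation test the unadjusted p was 0.0130 for LCP1, 0.0303 for LAPTM5, 0.0173 for CD14 and 0.0216 for TYROBP. The smallest that 5 arrays against 6 allow is 0.00433. An exact p under 0.05 was found for 5 of the 10 genes. For none of the 10 genes did all C2 arrays lie above all C1 arrays, a pattern shown by 10.7% of filtered probes. The number of calls depended on C2 replicate 2, since 7 genes passed without it, CSF1R, CD68 and AIF1 in addition. With C2 replicates 1 and 5 left out, an alternative chosen after seeing the data, 2 genes passed (LCP1 and CD14), and with the close C2 pairs averaged only LCP1 did (adjusted p = 0.0061). Of the 13865 filtered probes 3892 passed with all arrays and 3358 to 4266 when any 1 array was left out. Without replicates 1 and 5, 4084 passed, and with averaged pairs 2989 did.

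In the comparison of C2 with NC1, 7 of the 10 genes had a higher mean in C2, one of them being CD68, which differed by 0.01 and was lower with 75th percentile (-0.14) or quantile (-0.01) scaling. The genes that passed were 2, PTPRC and TYROBP, both higher. By the exact permutation test their unadjusted p was 0.00433 and 0.00866, and 3 of the 10 genes had one under 0.05. The background was again 28.1% of filtered probes, or 15.5% for higher in C2, beside 2 of 10 genes. The median difference was 0.94 over the 10 genes and 0.11 over all filtered probes. Complete separation, seen for PTPRC alone, was found for 10.6% of filtered probes. Without C2 replicate 2, 5 genes passed (LCP1, CD14 and AIF1 in addition), and without replicates 1 and 5 PTPRC had an adjusted p of 0.0168 and TYROBP one of 0.0954. With the close C2 pairs averaged these were 0.0152 and 0.0338. Of all filtered probes 3893 passed with all arrays and 3363 to 4153 when any 1 array was left out. Without replicates 1 and 5, 3972 passed, and with averaged pairs 2923 did. The 2 comparisons share the C2 arrays. Among the 3 stages together, 4 genes differed by limma's moderated F test (PTPRC, LCP1, CD14 and TYROBP), against 28.6% of filtered probes. By the methods' one-factor test 1 did, beside 3641 of 13865 filtered probes.

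**Figure D2:**
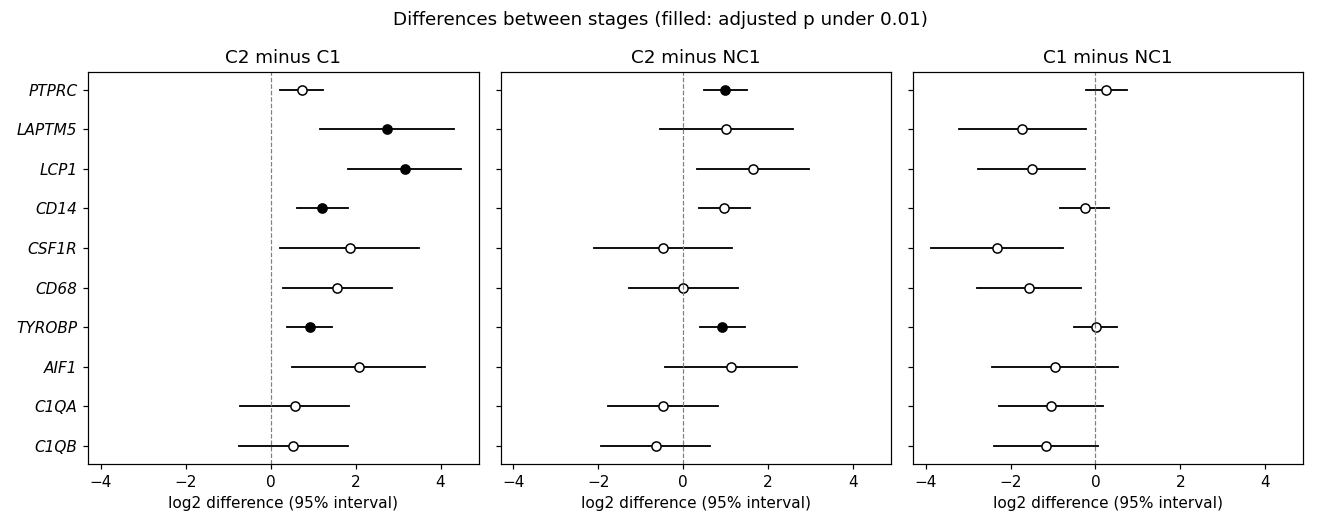
Log2 difference of each gene (x axis) with its 95% interval from limma, for C2 minus C1, C2 minus NC1 and C1 minus NC1; filled points have an adjusted p under 0.01 over 13865 probes. All points lie right of 0 for C2 minus C1, with 4 filled, while 8 of 10 lie left of 0 for C1 minus NC1, with none filled.

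The comparison of adult with calf cumulus cells, both compact and collected alike, addresses the acquisition of competence before maturation. In C1 8 of the 10 genes had a lower mean than in NC1. PTPRC differed by 0.26 (SE 0.23) and TYROBP by 0.01 (SE 0.24), or by -0.01 with 75th percentile scaling. None passed the adjusted threshold, which 8 probes of the array did (0.0577%). At an unadjusted p under 0.05 by limma, 4 genes were lower in C1 (CSF1R, LAPTM5, LCP1 and CD68), and 4.84% of filtered probes were. The separation of all arrays seen for CSF1R was shared by 1.21% of filtered probes. By the 2-sided exact permutation test of single genes, of which 30 were run over the 3 comparisons, the smallest p of this comparison was 0.00216 for CSF1R, which is also the smallest that 6 arrays against 6 allow. The exact p was 0.00433 for CD68, 0.00866 for LCP1 and 0.0238 for LAPTM5, none of them adjusted. An exact p under 0.05 was found for 6 of the 10 genes. The test was not run on the other probes, so no background share stands beside this count.

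Each of the 6 slides carried 1 NC1 and 1 C1 array, which allows the same comparison within a slide. CSF1R differed by -4.02 to -1.51 on the log2 scale and was lower in C1 on every slide. LAPTM5 differed by -3.64 to -0.60, LCP1 by -2.99 to -0.53 and CD68 by -2.55 to -0.26, again on every slide. AIF1, C1QA and C1QB were also lower in C1 on all 6 slides, so that 7 of the 10 genes had this pattern, and 4.16% of filtered probes did. PTPRC was higher in C1 on 3 of 6 slides and CD14 and TYROBP on 2 of 6. With slide as a block, CSF1R had a difference of -2.33 with an adjusted p of 0.241. The genes vary together between arrays, so that the 7 are not 7 independent observations.

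**Figure D3:**
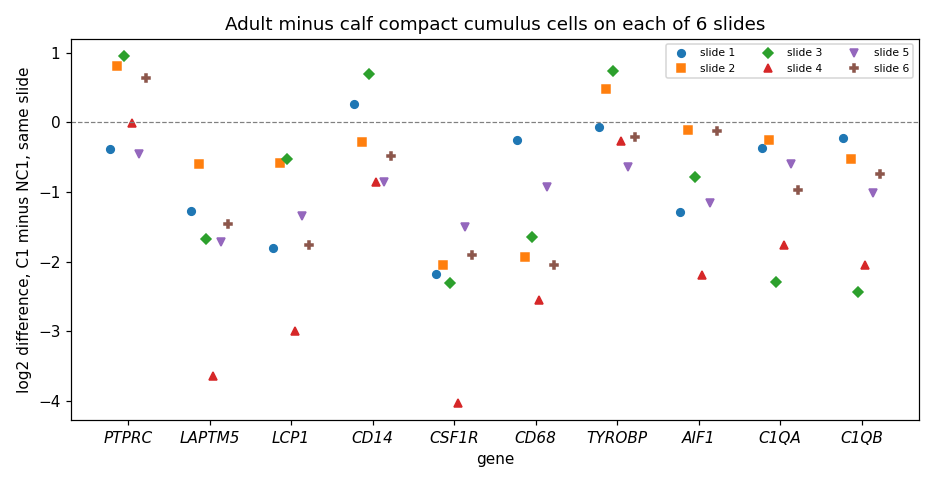
Log2 difference between the C1 and the NC1 array of the same slide (y axis) for each gene, with 1 symbol for each of 6 slides. For LAPTM5, LCP1, CSF1R, CD68, AIF1, C1QA and C1QB all 6 symbols lie below 0, whereas PTPRC, CD14 and TYROBP have symbols on both sides.

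Within a stage most of the genes, but not all, varied more than the median probe. In C2 the median SD of the 10 genes was 1.76 and that of all filtered probes was 0.50. An SD over 1 was found for 7 of the 10 genes (all but PTPRC, CD14 and TYROBP) and for 14.6% of filtered probes. In NC1 and C1 the median SD of the 10 genes was 0.68 and 0.80, beside 0.34 and 0.33 over all filtered probes. In NC1 7 of the 10 genes had an SD above that median, and PTPRC (0.23), TYROBP (0.23) and CD14 (0.29) did not. PTPRC, CD14 and TYROBP each passed a test with differences near 1, and their standard errors for C2 against either stage lay between 0.24 and 0.29.

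After the mean of each stage was subtracted, all 45 pairs of genes were positively correlated over the 17 arrays, with a median Pearson's r of 0.66 and a median Spearman's rho of 0.54. C1QA and C1QB had the highest r (0.98, rho 0.96), followed by C1QA with CSF1R (0.95, rho 0.92). The lowest was between PTPRC and CD68 (0.13, rho -0.05). Without C2 replicates 2 and 5 the median r was 0.31 and 39 of 45 pairs were positive. An r over 0.8 was then found for 10 pairs, beside 15 over all arrays. These 2 arrays were chosen as those where the mean of the 10 genes lay farthest from its median. Leaving them out tends to lower r by that choice, so the drop does not show where the common variation lay. Within the 6 NC1 arrays the median r was 0.75 with 45 positive pairs, and within the 6 C1 arrays it was 0.31 with 26. The pairs share their arrays, and each array's scaling acts on all genes at once.

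**Figure D4:**
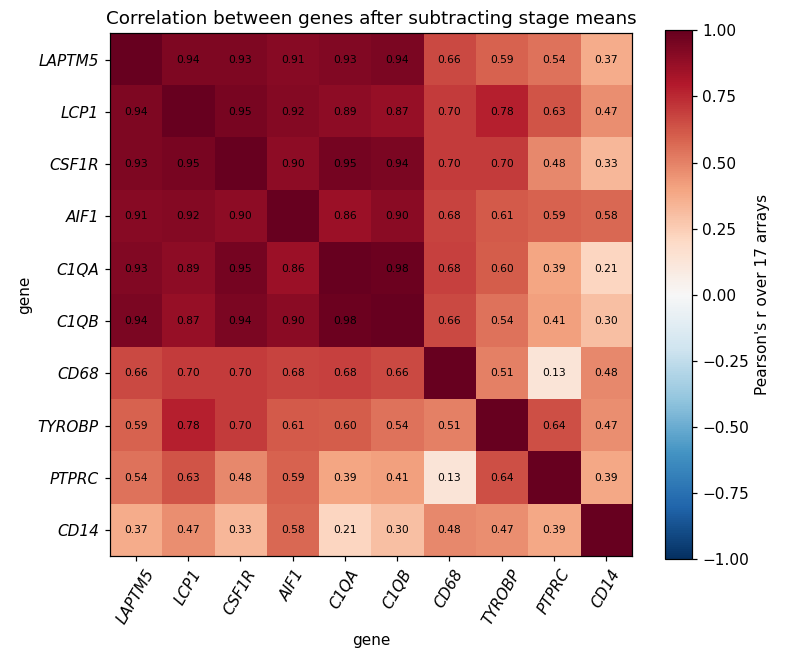
Pearson's r between each pair of genes over 17 arrays after subtraction of stage means (colour and number; both axes list the genes). LAPTM5, LCP1, CSF1R, AIF1, C1QA and C1QB form a block of high values, while PTPRC and CD14 have the lowest.

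Taken against the mean of the other 9 genes, LCP1 (r = 0.97), CSF1R (0.96), LAPTM5 (0.95), AIF1 (0.94), C1QB (0.93) and C1QA (0.92) followed it most closely, and 0.0433% to 0.18% of filtered probes had a higher r. CD68 (0.70), TYROBP (0.69), PTPRC (0.52) and CD14 (0.44) followed it less, and 3.14% to 14.7% of probes had a higher r. PTPRC, CD14 and TYROBP thus had both the narrowest ranges in C2 and the 3 lowest correlations with the other genes. Whether their signal came from leukocytes was not tested.

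The array was also searched for the genes most alike. After subtraction of stage means, the named genes with the highest r to the mean of the 10 included CD163, a scavenger receptor of macrophages (0.99), RGS1, a regulator of G-protein signalling in leukocytes (0.98), MSR1, another scavenger receptor (0.97), and FABP5, a fatty acid binding protein (0.96). Without the subtraction they included MSR1, RGS1, CD163 and NCF4, a subunit of the phagocyte oxidase, with r from 0.98 to 0.97. Of these, NCF4 was higher in C2 than in C1 past the threshold (2.70, adjusted p = 0.00545). CD163 differed by 2.12 with an adjusted p of 0.0133. In all, 1.56% of filtered probes had an r over 0.8, beside a median r of 0.03.

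Lists of further markers were counted in the same fit, beside 15.3% (against C1) and 15.5% (against NC1) of all filtered probes that were higher in C2. Of 14 filtered genes of monocytes and macrophages beyond the 10, 7 were higher in C2 than in C1 and 3 were higher than in NC1, none was lower, and the median differences were 2.09 and 0.88. CTSS, the lysosomal protease cathepsin S, was higher in C2 than in C1 by 3.50 (SE 0.44) and LYZ, lysozyme, by 1.89 (SE 0.32), with no overlap of the arrays. Of 10 filtered pan-leukocyte genes 2 were higher in C2 than in C1, among them VAV1, an exchange factor of blood cells (1.66, SE 0.31), and 1 was higher than in NC1, shares near those of all filtered probes. Without a filter, 8 of 24 pan-leukocyte and 9 of 25 monocyte and macrophage genes were higher in C2 than in C1. Of all 21475 probes, 4546 then passed this comparison in either direction.

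Genes of other leukocytes were counted against the same shares. Among 10 filtered lymphocyte genes 3 were higher in C2 than in C1, including CD247, the zeta chain of the T cell receptor (0.93, SE 0.22), and ZAP70, a kinase that binds it (0.83, SE 0.23). Without a filter 8 of 22 were higher, beside 4546 of 21475 probes called in either direction. The T cell markers CD8A and CD3E, named after their values were seen, were above background in 4 C2 arrays and in no NC1 or C1 array. CD5 and CD79B, of the same list, were above background in no array of any stage. The share of all probes detected in C2 alone was not determined here. Among 9 filtered neutrophil genes S100A8 (4.67, SE 0.94) and S100A12 (3.04, SE 0.69), calcium-binding proteins of neutrophils and monocytes, were higher, and TREM1 was lower (-0.92, SE 0.18). The neutrophil list did not follow the 10 genes from array to array (r = 0.03 with their mean after subtraction of stage means, rho -0.16). Its mean in C2 was highest in replicates 3 and 4, at 3.45 and 3.40. Among 4 filtered genes of MHC class II presentation, none passed for C2 against C1 by limma, 2 had an unadjusted p under 0.05, and the median difference was -0.20. BOLA-DRA, the alpha chain of the DR molecule and the gene with the largest difference, differed by 2.16 (adjusted p = 0.0243), while BOLA-DMA and BOLA-DMB, chains of the peptide-loading molecule, differed by -0.71 and -0.82.

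Genes that attract or hold leukocytes varied with the 10 genes. Of 14 filtered genes of chemokines, growth factors and adhesion molecules, 6 were higher in C2 than in C1 and 1 was lower, beside 15.3% of all filtered probes higher and 28.1% called. VCAM1, an adhesion molecule that binds leukocyte integrins, was higher by 6.55 (SE 0.81), CXCL8, a chemokine for neutrophils, was higher by 4.82 (SE 0.96), and MIF, a cytokine, was lower (-1.31, SE 0.28). Against NC1 only VCAM1 passed (6.12, SE 0.81). The mean of the list followed the mean of the 10 genes over the 17 arrays with r = 0.92 (rho 0.90), and with r = 0.79 without the 2 farthest arrays. Cells that make these chemokines include leukocytes themselves, so the 2 lists are not independent.

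Markers of neighbouring cell types also varied with the genes within C2. The mean of 9 theca and stroma genes was 4.74, 2.94, 2.94, 2.89 and 4.36 in C2 replicates 1 to 5, so that replicates 1 and 5 again were the highest, and it ranged from 2.97 to 3.64 in NC1 and from 2.38 to 3.62 in C1. The mean of 11 granulosa and cumulus genes was 5.63, 6.42, 6.92, 7.06 and 5.19 in the same C2 arrays, lowest in replicates 1 and 5, and ranged from 7.88 to 8.75 in NC1 and from 8.00 to 8.56 in C1. Of these 11 genes, 6 were lower in C2 than in C1, beside 28.1% of filtered probes called in either direction. None of the 11 was below background in any array. Of the 9 theca and stroma genes 2 were higher in C2 than in C1, beside 15.3% of filtered probes. The list as a whole followed the 10 genes with r = 0.77 (rho 0.85) after subtraction of stage means. Of 13 endothelial genes 8 passed the filter, and their mean in C2 was -0.78, -1.52, -1.59, -1.34 and -0.48 in replicates 1 to 5, again highest in replicates 1 and 5, and ranged from -1.58 to -0.96 in NC1 and from -1.68 to -1.25 in C1. It followed the 10 genes with r = 0.57 (rho 0.42) after subtraction of stage means, and with r = 0.245 without the 2 farthest arrays. KDR, a receptor for vascular endothelial growth factor, was higher in C2 than in C1 by 3.58 (SE 0.50) with no overlap. It was the 1 of these 8 genes that passed as higher. TEK, another of the 8, was lower in C2 than in NC1 by limma (-1.61, SE 0.23, adjusted p = 1.8e-05), also with no overlap. Against C1 TEK differed by -0.78 (adjusted p = 0.0101). CDH5, EMCN and ERG, defining markers of endothelium, were above background in no array. Of 4 platelet genes with a probe, GP5 was above background in no array, and PF4 and PPBP were above it in 3 and 1 C2 arrays and in no NC1 or C1 array. The 1 platelet gene that passed the filter had r = -0.03 with the 10 genes after subtraction of stage means. Of 7 red blood cell genes with a probe 2 passed the filter, and neither was called for C2 against C1 or NC1. Their mean was -0.86 in NC1, -0.79 in C1 and -0.72 in C2, with r = -0.34 to the 10 genes after the same subtraction. The part of other cell types in the levels of the 10 genes was not tested.

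**Figure D5:**
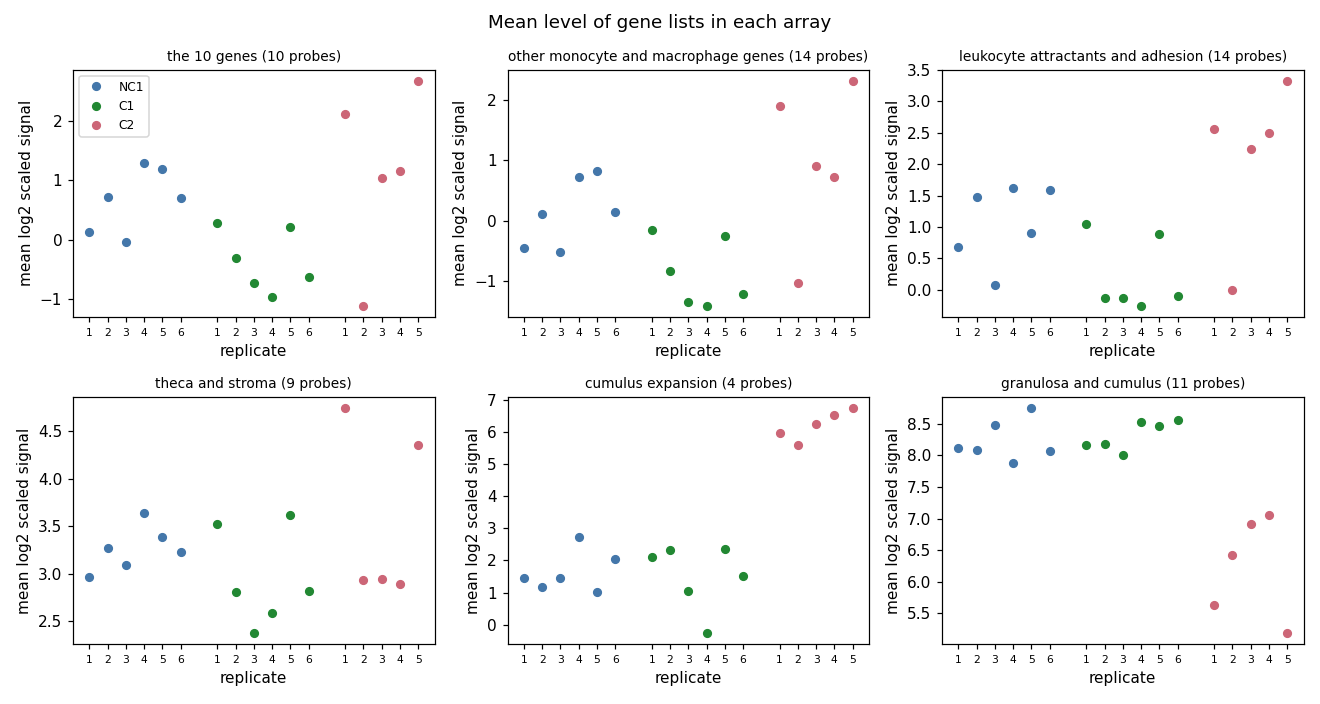
Mean log2 scaled signal (y axis, a separate scale for each panel) of 6 gene lists in each array, for NC1, C1 and C2, with replicate numbers on the x axis. The 10 genes, the other monocyte and macrophage genes and the theca and stroma genes are highest in C2 replicates 1 and 5, in which the granulosa and cumulus genes are lowest.

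C2 replicate 2 stood apart from this pattern without standing apart in cumulus expansion. The mean of 4 cumulus expansion genes was 5.59 in this array and between 5.97 and 6.75 in the other C2 arrays, whereas it did not exceed 2.73 in NC1 or 2.37 in C1. In the same array the mean of the 10 genes was -1.12, below the lowest C1 array (-0.97). The C2 arrays thus all had high levels of the expansion genes, with levels of the 10 genes that ranged from below to above all arrays of compact cumulus cells.

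The 10 genes were also compared within the scan days. Arrays were scanned on 2 days, with 3 arrays of each stage on the first day and 3, 3 and 2 arrays of NC1, C1 and C2 on the second. C2 replicates 3 and 4, which form a close pair, were the C2 arrays of the second day, and replicates 1, 2 and 5 those of the first. For C2, scan day and what sets replicates 3 and 4 apart cannot be told apart, also for the neutrophil list. LAPTM5 differed between C2 and C1 by 1.99 on the first day and 3.46 on the second. CD14 differed by 0.83 and 1.80 in the same comparison. CSF1R differed between C1 and NC1 by -2.05 and -2.61. With scan day as a term, LAPTM5 had an adjusted p of 0.00746 for C2 against C1.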

How the data were processed

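RNA of 17 cumulus cell samples from cows and calves (0.35 µg each) was labelled with Cy3 and hybridised to 1-colour Agilent bovine arrays. The authors deposited linear intensity values per spot from Agilent Feature Extraction 10.5.1.1, after background subtraction, and a table of log2 values that the authors had scaled to each array's median in GeneSpring. Both are deposited per array. No genome build is given in the sources used here. The number of arrays limits the precision.

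Here log2 processed signals were averaged over the spots of each probe, without spots marked as non-uniform or as outliers, and the median of each array was subtracted. Probes present on at least 50% of spots in 80% of the arrays of each stage were kept. The 3 stages were fitted together with limma 3.58.1 (lmFit, eBayes; R 4.3.3), p-values were adjusted over all filtered probes (Benjamini-Hochberg), and the threshold was 0.01. Single genes were also tested by exact 2-sided permutation (scipy 1.17.1). The fit was tested on simulated data of 13865 probes, in which it recovered 19, 43, 47 and 50 of 50 probes changed in C2 against C1 by 1, 2, 3 and 4 on the log2 scale, with 1 false call. The median SD of the 10 genes was 1.76 in C2, beside 0.68 in NC1 and 0.80 in C1. Recovery at such unequal spread, or with close pairs of arrays in C2, was not tested. Accessions and gene IDs were named through RefSeq's gene table. The probes of SPI1, ICAM1 and PAX5 have descriptions that name other genes and are only counted.

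The 10 genes and the lists were chosen with earlier results of these data known. Named were all 10 genes, of each list the 3 genes with the largest differences past the threshold whose groups did not overlap, and the 5 genes most like the mean of the 10 with and without stage means subtracted, by the brightest probe, except for a gene that is not reported here. The alternatives tried were 75th percentile and quantile scaling, normexp (offset 50), other filters, the deposited table, array weights, slide, scan day and replicate number as terms, leaving out each array, the methods' one-factor test and the mean over the probes of a gene. Columns of other samples numbered 0.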

Additional observations from a re-analysis of the deposited data

Results flagged for a closer look

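In 33 groups of arrays examined for a value far from the others (10 genes and their mean in 3 stages), 2 were found, and chance gives about 1 in 20. PTPRC in NC1 replicate 3 was at -0.26, the lowest of 6, with a gap to the next array of 0.72 of the range. AIF1 in C2 replicate 2 was at -4.29, the lowest of 5, with a gap of 0.72 of the range, and was not well above background there.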

How the results depend on the processing

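Of 900 values of the 10 genes under other settings, 817 kept their direction and their side of the threshold, and 26 changed sign. LCP1 and CD14 passed for C2 against C1 over filtered probes in every setting run, except that CD14 did not where close C2 replicates were averaged. By 75th percentile scaling, which shifted the median of all filtered probes by -0.13 (C2 against C1) and -0.15 (C2 against NC1), 2 genes passed for C2 against C1, 0 for C2 against NC1 (over all probes 0) and 2 among the 3 stages (over all probes 1). Of all filtered probes 4628, 4574 and 4775 then passed, beside 3892, 3893 and 3969 with the reported settings. Quantile scaling, which shifted that median by -0.08 and -0.11, and slide as a block each left 1 gene for C2 against NC1, the block 0 over all probes and 1 among the stages. Of filtered probes 4605 and 3393 passed for C2 against NC1 in these settings, and 3358 among the stages with the block. Normexp, which shifted C1 against NC1 by 0.14, gave 2 over all probes for C2 against NC1. Without a filter 1 gene passed for C2 against NC1 and 2 among the stages, beside 4402 and 4735 of all 21475 probes. Array weights gave, over all probes, 0 genes for C2 against NC1, 1 for C1 against NC1 and 4 among the stages. The methods' one-factor test left 1 gene, over all probes too, beside 3641 filtered probes.

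With the replicate block, 0 probes of the array passed for C1 against NC1 and 2 of the 10 genes differed among the stages. Of filtered probes 3048 differed among the stages and 3202 passed for C2 against C1 with this block. Numbers did not pair the animals (correlations of same-numbered arrays from -0.32 to 0.25), and 3 genes passed for C2 against C1 (LAPTM5, LCP1, CD14). For C1 against NC1, 19 probes passed with the filter in at least 1 stage, 25 without a filter, 239 with array weights, 2 with slide as a block and 32 without C2 replicates 1 and 5.

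As alternatives chosen after seeing the data, averaging C2 replicates 1 with 5 and 3 with 4 left 1 gene for C2 against C1, 0 for C2 against NC1 and 0 among the stages, over all probes too, and leaving out replicates 1 and 5 left 2, 0 and 2 genes, or 1, 0 and 1 over all probes. Leaving out each array in turn gave 2 to 7 genes for C2 against C1 (1 to 7 over all probes), 0 to 5 for C2 against NC1 (0 to 5) and 1 to 8 among the stages (1 to 7), and 1 to 19 probes of the array for C1 against NC1. The upper ends for C2 against C1 and against NC1 came without C2 replicate 2. Of all filtered probes, in the same order of comparisons, averaging left 2989, 2923 and 2849. Leaving out replicates 1 and 5 left 4084, 3972 and 3992 filtered probes. Leaving out each array in turn gave 3358 to 4266, 3363 to 4153 and 3429 to 4292.

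Signs changed for 7 differences, none past the threshold with all arrays and the reported settings. CD68 for C2 against NC1 (0.01) was -0.14 by the 75th percentile, -0.010 by quantiles, -0.11 with the slide block, -0.47 with averaged replicates, -0.99 without C2 replicates 1 and 5, and -0.41 to 0.73 leaving out 1 array. TYROBP for C1 against NC1 (0.01) was -0.014 by the 75th percentile, -0.0036 with array weights and -0.094 to 0.077 leaving out 1 array. For C2 against NC1, CSF1R was 0.36 and C1QA 0.26 with array weights, and leaving out 1 array they ranged from -1.08 to 0.35 and from -0.97 to 0.12. Without C2 replicates 1 and 5, C1QA was -0.55 and C1QB -0.40 for C2 against C1, and LAPTM5 was -0.052 for C2 against NC1. The causes were not tested. Dim probes limit LCP1 and AIF1, each not well above background in 1 array.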
